A study of Mus musculus with 12 samples.

Results

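The LIM homeobox genes were examined in germ cells and somatic cells of the fetal mouse ovary after maternal treatment with dexamethasone (dex), a synthetic hormone that activates the glucocorticoid receptor, or with saline. The set held 10 genes, Lhx1, Lhx2, Lhx3, Lhx4, Lhx5, Lhx6, Lhx8, Lhx9, Isl1 and Lmx1b, of 54532 gene identifiers in the deposited count table. Members were selected by symbol, and the list was drawn up when results of these libraries were already known, among them the somatic difference of Lhx4 between dex and saline and its difference between cell types. The fold changes and levels of the members are therefore given as a description, with no p-value. Isl2 and Lmx1a, the other LIM homeobox genes of the mouse, were not members and were tested along with all genes.

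Ovaries were taken at embryonic day E15.5 from female embryos of the strain Tg(Pou5f1-EGFP)2Mnn, in which a green fluorescent protein (GFP) driven by Pou5f1 regulatory sequence marks germ cells. Dams had been injected intraperitoneally each day from E12.5 to E15.5 with saline vehicle or with dex, dosed by weight at 10 µg per g. Cells freed of the mesonephros were sorted by GFP, the positive cells being germ cells and the negative ones a mixture of every other ovarian cell type. Both fractions were taken under both treatments, which gave 4 groups of 3 libraries, and each library pooled at least 2 whole litters dosed separately. Libraries held 14658503 to 18245507 counts, and 3 counts, taken as the floor of detection, corresponded to 0.169 to 0.201 CPM, the count scaled to library size. The sort was checked against marker genes. Of 10 germ cell markers, 9 were higher in germ cells and Rec8, a meiotic cohesin gene, was higher in somatic cells, and each of 19 markers of pregranulosa cells, stroma and surface epithelium was higher in somatic cells. Dex replicate 3 of the somatic cells differed most from its group (chi-square per degree of freedom over genes of 15.6 and 21.1 against the other dex replicates, and 5.29 to 9.67 for every other pair), so the somatic dex results are also given without it.

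LIM homeodomain proteins are transcription factors that carry a pair of LIM zinc-binding domains beside a DNA-binding homeodomain. The LIM domains bind LDB adaptor proteins, which join several factors into one complex, and LIM-only (LMO) proteins compete for the same adaptors. The family is best known for neuronal identity and for the patterning of limbs, pituitary, kidney and gonad, and most members fall into close paralog pairs. In the ovary LHX8 is a known oocyte factor needed for the primordial follicle, whereas LHX9 acts in the somatic gonadal ridge, where it is needed for a gonad to form.

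The members that held the highest levels in each cell fraction, and Lhx4, are shown first by their proximal promoters, to set them beside the measured levels. The 250 bases before the RefSeq transcript start are printed in the direction of transcription, from GRCm38.p6, with CpG dinucleotides in capitals. The Lhx4 window lies at chr1:155742028-155742277 on the minus strand, within the span of the deposited gene model, which begins further upstream. The Lmx1b window is chr2:33641099-33641348, the Lhx8 window chr3:154330561-154330810 and the Lhx9 window chr1:138842445-138842694, and these genes also lie on the minus strand. The Lhx9 window likewise lies within the span of its deposited gene model, which begins further upstream, at 138848577. The Lhx8 window overlaps the beginning of its deposited gene model, at 154330659.
Lhx4: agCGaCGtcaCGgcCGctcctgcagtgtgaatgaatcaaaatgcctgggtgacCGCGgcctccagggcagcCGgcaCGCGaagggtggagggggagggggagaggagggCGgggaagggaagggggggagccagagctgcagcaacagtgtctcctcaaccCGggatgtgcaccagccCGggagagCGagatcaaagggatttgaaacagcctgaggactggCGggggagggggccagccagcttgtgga
Lmx1b: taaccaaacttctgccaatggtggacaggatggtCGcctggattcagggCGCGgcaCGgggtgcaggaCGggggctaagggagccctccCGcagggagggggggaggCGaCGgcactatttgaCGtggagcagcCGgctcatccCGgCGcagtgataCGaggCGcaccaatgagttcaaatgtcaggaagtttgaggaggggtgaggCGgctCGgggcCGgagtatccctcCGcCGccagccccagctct
Lhx8: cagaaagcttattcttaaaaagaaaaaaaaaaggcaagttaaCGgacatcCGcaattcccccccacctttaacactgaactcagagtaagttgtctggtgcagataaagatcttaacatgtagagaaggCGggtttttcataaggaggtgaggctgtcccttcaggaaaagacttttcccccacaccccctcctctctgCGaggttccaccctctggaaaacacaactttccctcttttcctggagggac
Lhx9: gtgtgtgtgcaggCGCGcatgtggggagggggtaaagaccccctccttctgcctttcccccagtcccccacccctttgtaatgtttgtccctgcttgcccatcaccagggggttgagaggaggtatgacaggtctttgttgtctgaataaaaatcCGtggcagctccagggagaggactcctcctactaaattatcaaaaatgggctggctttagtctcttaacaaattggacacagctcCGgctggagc

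The Lhx4 window held 14 CpG dinucleotides and 66% G and C, and the Lmx1b window held 19 and 65.2%. The Lhx8 and Lhx9 windows each held 4 CpG dinucleotides, with 46% and 53.6% G and C. Over 32851 promoter windows of the same length the medians were 6 CpG dinucleotides and 52.4% G and C, so the windows of Lhx4 and Lmx1b were above the median on both measures. Promoters were found for 9 of the 10 members, with 13 start sites. The 6-base element AGAACA, one arm of the palindrome bound by the glucocorticoid receptor and searched on both strands, was found in 2 of the 13 windows, 99 bases before one Lhx6 start and 107 bases before the Isl1 start, against 16.1% of all windows. The full palindrome (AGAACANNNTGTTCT) was in none of the 13 windows and in 0.00913% of all windows. The homeodomain core TAATTA was likewise in none of them and in 4.84% of all windows. The Lhx4 window thus held none of these 3 motifs, which says only that those letters are absent from these 250 bases.

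Germ cells and somatic cells differed in which LIM homeobox genes they expressed. Compared per length, as FPKM (fragments scaled to exon length and library depth), germ cells held mostly Lhx8 and Lmx1b, which together made up 76.7% to 85.3% of the summed FPKM of the 10 genes in the 6 germ cell libraries. Somatic cells held mostly Lhx9, at 73.5% to 83.1% of that sum, and Lhx9 with Lhx1 came to 82.6% to 94.2%. The summed FPKM was 31.6 ± 4.67 (SD, n = 3) in saline germ cells and 28.1 ± 1.52 after dex, and in somatic cells 12 ± 0.285 after saline and 13.7 ± 0.921 after dex.

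**Figure D1:**
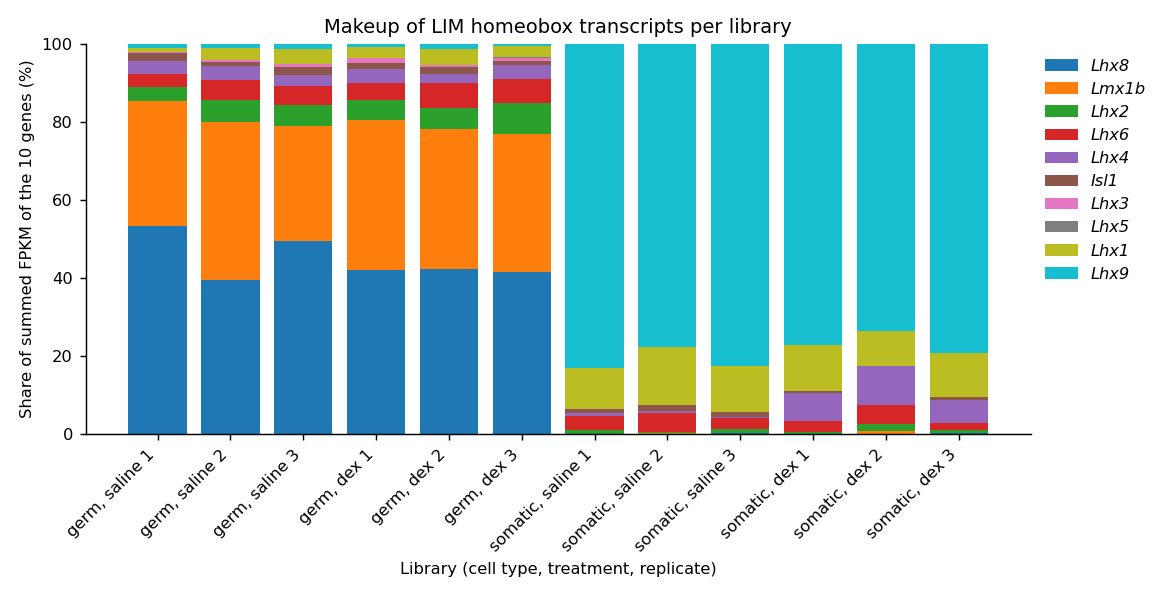
Share of each gene in the summed FPKM of the 10 LIM homeobox genes (y axis, %) in the 12 libraries (x axis, cell type, treatment and replicate). Lhx8 and Lmx1b fill most of each germ cell bar and Lhx9 most of each somatic bar, and Lhx4 takes 5.77% to 9.93% after dex in somatic cells against 0.166% to 0.722% after saline.

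The order of the mean levels in saline germ cells was Lhx8, Lmx1b, Lhx2, Lhx6, Lhx4, Lhx1, Isl1, Lhx9, Lhx3 and Lhx5, from 15.2 down to 0.0306 FPKM. Lhx8 and Lmx1b, Lhx2 and Lhx6, and each neighbouring pair from Lhx4 to Lhx9 in that order overlapped between their libraries, whereas Lmx1b stood clear of Lhx2. In germ cells after dex the order differed only in that Lhx1, at 0.911 FPKM, came before Lhx4, at 0.877 FPKM, and those genes overlapped. In saline somatic cells Lhx9 (9.75 FPKM) stood clear of Lhx1 (1.49 FPKM), and Lhx1 of Lhx6 (0.457 FPKM). Below them Isl1, Lhx2, Lhx4, Lmx1b and Lhx8 overlapped with their neighbours, and Lhx3 and Lhx5 had no counts. After dex the somatic Lhx4 mean ranked after Lhx9 and Lhx1, at 1.05 FPKM, and overlapped with Lhx1 at 1.48 FPKM but not with Lhx6 at 0.414 FPKM.

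**Figure D2:**
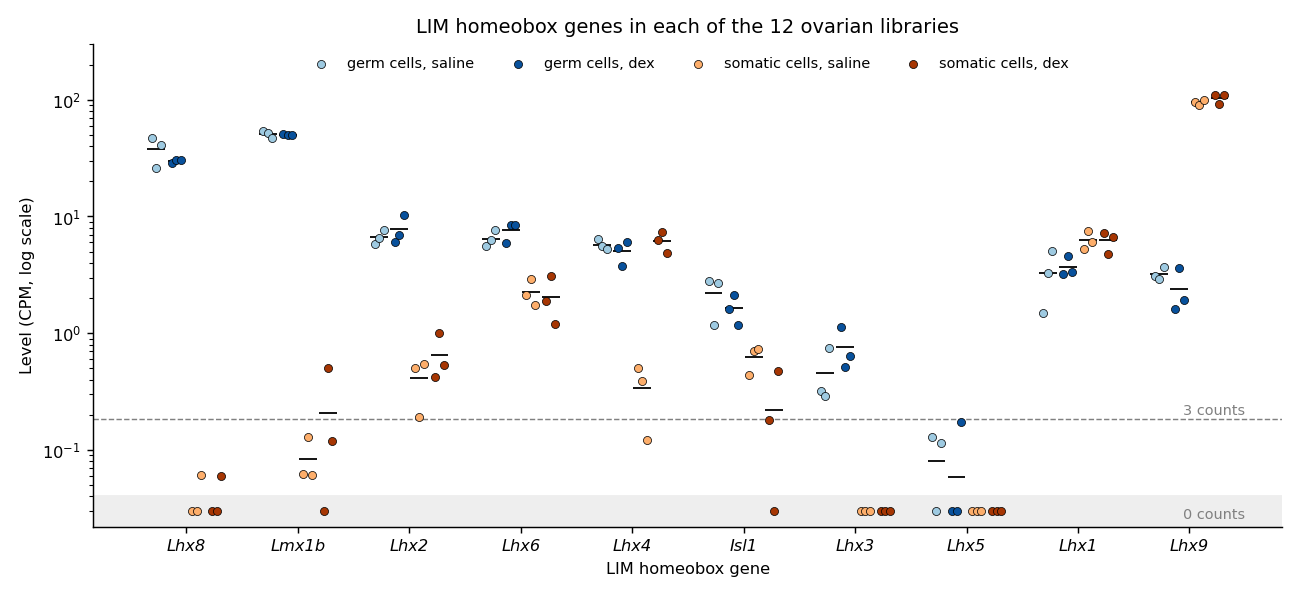
Level of each LIM homeobox gene in CPM (y axis, log scale) in the 4 groups, with a point per library and a bar at the group mean. Points in the grey band had 0 counts and the dashed line marks 3 counts. Lhx8 and Lmx1b lie above 26 CPM in each germ cell library and below 1 CPM in each somatic library, Lhx9 shows the opposite order, and Lhx4 separates the somatic groups.

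Lhx8 showed the widest gap between the fractions. It had 732, 449 and 715 counts in saline germ cells, 430, 470 and 524 after dex, and 1 count in all in the 3 saline and 1 in the 3 dex somatic libraries. In CPM the germ cell values were 47.3, 26.2 and 40.9 after saline and 28.8, 30.4 and 30.5 after dex. Replicate 2 of the saline germ cells was the lowest of the 6, so that the treatments overlapped. From counts, Lhx8 was 1811-fold higher in germ cells than in somatic cells after saline (exact 95% counting interval, 325 to 71567) and 1531-fold higher after dex (274 to 60494). These intervals cover counting error only, since the reads carried no molecular identifiers.

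Lmx1b, a factor of limb, kidney and midbrain development, was the other abundant member in germ cells. It measured 54.4, 52 and 47.1 CPM after saline and 50.7, 49.6 and 49.8 CPM after dex. Somatic libraries had 1, 2 and 1 counts after saline and 0, 9 and 2 counts after dex, so its level there was close to the floor. The fitted difference between germ and somatic cells was 9.14 ± 0.23 (log2, SE) in saline libraries and 7.79 ± 0.34 in dex libraries, and the latter was 9.52 without replicate 2 of the dex somatic cells, the library with 9 counts.

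Lhx2 and Lhx6 followed at lower levels. Lhx2, a regulator of forebrain, eye and hair follicle development, measured 5.82, 6.59 and 7.66 CPM in saline germ cells and 6.09, 6.91 and 10.3 CPM after dex, against 0.193 to 1.01 CPM over the 6 somatic libraries. Lhx6, known from cortical interneurons, measured 5.56, 6.24 and 7.6 CPM in saline germ cells and 5.89, 8.53 and 8.51 CPM after dex, and 1.19 to 3.1 CPM in somatic cells. The libraries of the cell types did not overlap for either gene, and the log2 difference in saline libraries was 3.99 ± 0.34 for Lhx2 and 1.53 ± 0.26 for Lhx6. The counts of Lhx2, and of Lhx3, Lhx5 and Lmx1b, may include reads of a gene model that overlaps them on the opposite strand, since no source used here gives the strand setting of the counting. Lhx6 overlaps a gene model on its own strand, and how reads of such overlaps were counted was not given either.

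Isl1, a factor of motor neurons, heart and pancreas, was low in both fractions. In germ cells it measured 2.78, 1.17 and 2.69 CPM after saline and 1.61, 2.13 and 1.17 CPM after dex. Somatic cells held 7, 11 and 12 counts after saline and 3, 0 and 8 after dex, which placed the saline libraries at 0.44 to 0.728 CPM. The log2 difference between germ and somatic cells was 1.81 ± 0.44 after saline and 2.86 ± 0.71 after dex, and the latter was 4.08 without dex replicate 3 and 2.27 without dex replicate 2 of the somatic cells.

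Lhx3, a pituitary and motor neuron factor, had 5, 5 and 13 counts in saline germ cells, 17, 8 and 11 after dex, and none in the somatic libraries. Germ cells thus held at least 2.41-fold more than the floor of 3 counts per somatic library after saline, and at least 4.34-fold more after dex. Lhx5 had 4 counts over the 3 saline germ cell libraries, 3 counts over the dex ones and 0 in somatic cells, each library at or below the floor, and no fold is given. Both are thus detected at most weakly at this depth.

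Lhx9 was the main somatic member. It measured 95.8, 90.7 and 99.6 CPM in saline somatic cells and 110, 91 and 109 CPM after dex. Germ cell libraries held 3.1, 2.91 and 3.66 CPM after saline and 1.61, 3.62 and 1.92 CPM after dex, which was 3.38% and 2.31% of the somatic mean under the same treatment. Levels of 19 other somatic markers in germ cells, as a percentage of their somatic means, had a median of 2.5% after saline and 3.37% after dex, and ranged from 0.282% to 18.1%. By cell type the medians after saline were 8.23% for 8 pregranulosa markers, 0.688% for 6 stromal markers and 2.42% for 5 markers of the surface epithelium. The part of somatic RNA in the germ cell values of Lhx9 was not tested.

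Lhx1, a regulator of the kidney and of the mesonephric and Mullerian ducts, was the second somatic member and the only other one that was lower in germ cells. Somatic cells measured 5.22, 7.48 and 6.07 CPM after saline and 7.19, 4.79 and 6.72 CPM after dex, and germ cells 1.49, 3.26 and 5.09 CPM after saline and 3.21, 4.59 and 3.32 CPM after dex. The highest germ cell library stayed under the lowest somatic library of the same treatment in both cases, though by little. The log2 difference was -0.90 ± 0.33 after saline and -0.76 ± 0.26 after dex. Beside it, 6 markers of mesonephric tubule and duct summed to 64.7 to 72.8 CPM in saline somatic libraries and 52.4 to 80.9 after dex, with Pax8 at a mean of 27.9 and 25.7 CPM. A share of mesonephric cells in the somatic level of Lhx1 was not tested.

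Of the 10 members, 8 passed the low-count filter in the comparison of germ with somatic cells after saline and all 8 were called, 6 higher and 2 lower in germ cells. Over all genes tested in that comparison 86.1% were called, 43.1% higher and 42.9% lower, and after dex 84.3% were called, 42.0% higher and 42.2% lower. After dex 7 of the 8 were called, and Lhx4 was not. A gene had to be high in one fraction to pass the filter, and nothing about the family is read from these counts.

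The higher gene of a paralog pair often differed between the fractions. Lhx2 was above Lhx9 in 6 of 6 germ cell libraries in FPKM and below it in 6 of 6 somatic libraries. Lhx8 was above Lhx6 in 6 of 6 germ cell libraries and below it in 6 of 6 somatic libraries. Lmx1b, at 10.4 ± 0.487 FPKM (SD, n = 6), was above Lmx1a, at 0.139 ± 0.0817, in 6 of 6 germ cell libraries, and in somatic cells Lmx1a, at 1.6 ± 0.302, was above Lmx1b, at 0.0291 ± 0.0364, in 6 of 6. Isl2 exceeded Isl1 in 6 of 6 germ cell libraries (1.5 ± 0.292 against 0.489 ± 0.186 FPKM), while Isl1 was the higher in 5 of 6 somatic libraries and in the last neither had counts. Lhx6 and Isl1, like their paralogs Lhx8 and Isl2, were themselves higher in germ than in somatic cells after saline (log2 1.53 and 1.81). Lhx4 was above Lhx3, and Lhx1 above Lhx5, in the 6 libraries of either fraction. The transcripts of these genes were nearly free of shared sequence, as only 1 of 66 pairs of the 12 family genes (Lhx5 and Lhx9) shared any stretch of 50 bases, so that few reads could be split between paralogs.

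Isl2 and Lmx1a, which were not members, were tested with all genes. Isl2 had 54, 46 and 44 counts in saline germ cells and none in saline somatic cells, at least 15.4-fold against the floor (adjusted p = 4.76e-07, edgeR's quasi-likelihood test with Benjamini-Hochberg adjustment). Lmx1a measured 5.54, 5.35 and 5.46 CPM in saline somatic cells and 0.175 to 0.452 CPM in saline germ cells, a log2 difference of -4.14 ± 0.36 (edgeR adjusted p = 4.02e-08). Neither gene was called between dex and saline in the fraction where it could be tested. For Isl2 in germ cells the log2 fold change was 0.35 ± 0.25 (edgeR adjusted p = 0.625), and for Lmx1a in somatic cells it was 0.09 ± 0.23 (edgeR adjusted p = 0.876).

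Dex treatment was next compared with saline within each fraction. In somatic cells Lhx4, a factor of the pituitary and of motor neurons, stood apart from the rest of the family. It had 8, 6 and 2 counts in the saline libraries and 105, 132 and 81 in the dex libraries, or 0.503, 0.387 and 0.121 CPM against 6.34, 7.43 and 4.82 CPM. The lowest dex library was far above the highest saline library. The fitted log2 fold change was 4.18 ± 0.40, or 18.1-fold, and between 3.77 and 4.58 with any single library left out (4.33 ± 0.40 without dex replicate 3). Because the sorted fraction mixes cell types, more cells of a type that expresses Lhx4 and more Lhx4 RNA per cell cannot be told apart here.

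In germ cells Lhx4 measured 6.4, 5.54 and 5.31 CPM after saline and 5.36, 3.75 and 6 CPM after dex, and the groups overlapped, with a log2 fold change of -0.18 ± 0.22. The difference of the dex response (germ minus somatic cells) was -4.37 ± 0.46. After saline Lhx4 was 16.9-fold higher in germ cells than in somatic cells (log2 4.08 ± 0.38), whereas after dex the somatic libraries overlapped with the germ cell libraries (log2 -0.32 ± 0.26, germ over somatic). The Lhx4 level of the dex somatic fraction was therefore within the range of the germ cell level or above it.

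Lhx4 in the dex somatic libraries was compared with other germ cell transcripts there. Its mean was 123% of the germ cell mean after dex and 5.86% after saline. Leaving aside Rec8, germ cell markers in dex somatic cells ranged from 0.244% to 1.3% of their germ cell level, with Dazl, a germ cell RNA-binding protein gene, the highest, and after saline from 0% to 0.452%. Lhx8 and Lmx1b, the abundant germ cell members, stood at 0.0663% and 0.417% in dex somatic cells. The 10 germ cell markers summed to 23.9 to 27.3 CPM in saline somatic cells and 27.1 to 48.4 CPM after dex, against 5397 to 6558 CPM in germ cells. Within the somatic sums Rec8 had means of 16.4 CPM after saline and 12.3 CPM after dex. The 8 markers tested between dex and saline somatic cells had a median log2 fold change of 0.73, against 0.00 over all genes. Only Rec8 (log2 -0.42) was lower after dex. Of the 8 markers 1 was called, Dazl, which rose from at most 1.35 CPM in the saline libraries to at least 12.6 CPM in the dex libraries (log2 3.43 ± 0.21, edgeR adjusted p = 2.92e-07).

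**Figure D3:**
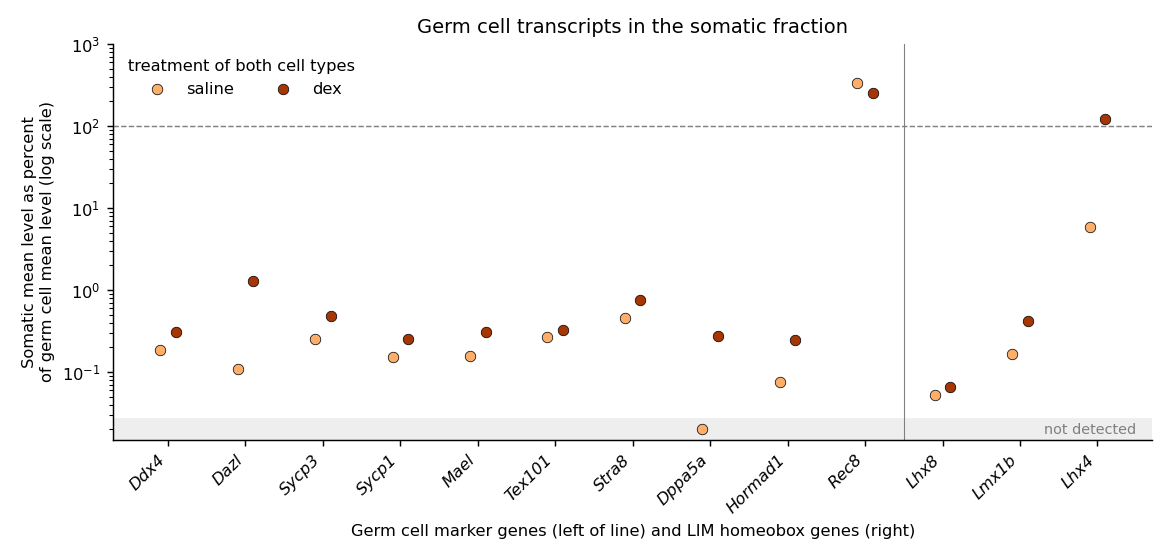
Mean somatic level as a percentage of the mean germ cell level under the same treatment (y axis, log scale), for 10 germ cell markers and 3 LIM homeobox genes (x axis), after saline and dex. The dashed line marks equal levels and the grey band a marker with no somatic counts. Lhx4 moves from 5.86% to 123%, while Lhx8 and Lmx1b stay below 1%.

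Markers of other cell types also differed between the somatic groups. Macrophage markers summed to 108 to 147 CPM after saline and 27.5 to 68.8 after dex, and 4 of 5 fell, including Adgre1 (log2 -1.78, edgeR adjusted p = 0.00346). The call of Tyrobp among them (edgeR adjusted p = 0.0254) was lost without dex replicate 1 or without any of the saline replicates, with adjusted p up to 0.126. Of 6 stromal markers 1 rose, Pdgfra, a growth factor receptor gene (log2 0.62 ± 0.07, edgeR adjusted p = 0.000101), and of 8 pregranulosa markers 1 fell, Wnt4, a signalling factor of the female gonad (log2 -0.24 ± 0.06, edgeR adjusted p = 0.0373). The Wnt4 call was lost without any single somatic library other than dex replicate 3, with adjusted p up to 0.138. Pregranulosa markers summed to 852 to 913 CPM after saline and 669 to 928 after dex. Without dex replicate 3, edgeR called 6 of the 8 pregranulosa markers lower (Wnt4, Rspo1, Fst, Kitl, Irx3 and Amhr2), 3 of 6 stromal markers higher (Col1a2, Col3a1 and Pdgfra), 5 of 5 macrophage markers lower, and 2 of 5 surface epithelium markers lower (Lgr5 and Krt7). Cspg4, a pericyte and stromal proteoglycan gene, rose (log2 1.06, edgeR adjusted p = 2.86e-05), as did Tubb3, a neuronal tubulin gene, from a mean of 0.685 to 2.72 CPM (log2 1.97, edgeR adjusted p = 0.0132). The Tubb3 call was lost without replicate 1 or without replicate 2 of the saline somatic cells, with adjusted p up to 0.0668 over the alternatives. Sox10, a neural crest marker, was near 0, with a mean of at most 0.503 CPM in the 4 groups. The part of such changes in cell makeup in the Lhx4 values was not tested.

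The remaining members that passed the filter with all libraries gave small differences in somatic cells. Lhx9 had a log2 fold change of 0.11 ± 0.07, Lhx6 of -0.14 ± 0.39 and Lhx1 of -0.01 ± 0.22, and the libraries of the treatments overlapped for each. Without dex replicate 3 these values were 0.07 ± 0.08, 0.14 ± 0.37 and -0.07 ± 0.24. The other 6 members, Lhx2, Lhx3, Lhx5, Lhx8, Isl1 and Lmx1b, were too low to pass the filter with all libraries. Isl1 passed it without dex replicate 3, with a log2 fold change of -2.73 ± 0.99. That fit rested on 7, 11 and 12 counts after saline and 3 and 0 after dex, the latter at or under the floor. Where Isl1 passed with 1 library left out, its values ran from -2.73 to -0.93. Among the 4 members tested 1, Lhx4, was called, and Lhx4 was also the only one whose libraries did not overlap. Over all genes tested in somatic cells 8.18% were called, 4.81% higher and 3.36% lower after dex, and 25.4% did not overlap. Since Lhx4 was known when the list was made, nothing is read from the count.

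In germ cells 9 members passed the filter, none was called and none had groups that did not overlap. Over all genes tested 0.208% were called and 17.4% did not overlap. The 0 members called by edgeR stand beside 35 genes of 16857, with 1963 at an unadjusted p under 0.05 and 158 called by DESeq2. The lowest log2 fold changes were those of Isl1 (-0.43 ± 0.39), Lhx9 (-0.43 ± 0.32) and Lhx8 (-0.34 ± 0.17), and the highest were those of Lhx3 (0.74 ± 0.55), Lhx6 (0.25 ± 0.21) and Lhx2 (0.23 ± 0.22). Lmx1b had the smallest error, with a log2 fold change of -0.02 ± 0.08. In the test of the difference between cell types 1 of 9 members tested, Lhx4, was called, against 1.62% of all genes.

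**Figure D4:**
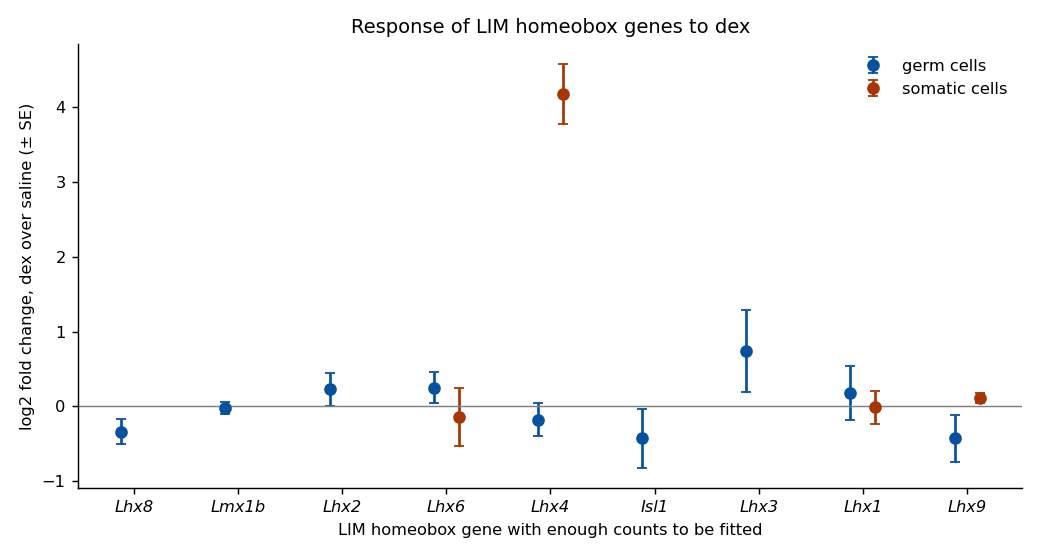
Fitted log2 fold change of dex over saline with its SE (y axis) for the LIM homeobox genes that passed the low-count filter (x axis), in germ cells and somatic cells. Somatic Lhx4 lies at 4.18, and the other values lie between -0.43 and 0.74.

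The genes around Lhx4 (chromosome 1, 155698031 to 155751684, GRCm38, minus strand) were examined for a shared response. Within 500000 bases, measured between the lower coordinates of the deposited gene models, lay 20 other genes, of which 9 passed the filter in somatic cells. None was called by edgeR between dex and saline there, with a lowest adjusted p of 0.272, 0 at an unadjusted p under 0.05 and 0 called by DESeq2. Their log2 fold changes ran from -0.66 to 0.83 with a median of -0.00, and the median of all genes was 0.00. The nearest neighbours with substantial levels were Acbd6, at 50.1 CPM after saline and 54.9 after dex (log2 0.13), and Qsox1, at 143 and 135 CPM (log2 -0.09).

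The genes whose pattern over the 12 libraries was most like that of 3 members were listed by Pearson's r of log2 CPM among 17978 genes. For Lhx4 these were Pag1 (r = 0.986), Dgat2 (r = 0.976), an enzyme of triglyceride synthesis, and Jak1 (r = 0.969), a cytokine receptor kinase. Dgat2 measured 11.6 ± 1.22 CPM in saline somatic cells and 59.6 ± 4.6 after dex (SD, n = 3), against 56 ± 2.66 and 43.6 ± 2.94 CPM in germ cells. Pag1 went from 16.1 ± 0.515 to 36.6 ± 3.42 CPM in somatic cells and stood at 37.9 and 36.6 CPM in saline and dex germ cells. For Lhx8 they were Tktl2, A730082K24Rik and Ezh1, and for Lhx9 Prdx3, Hsd17b10 and Cd99l2, each at r = 0.999. These correlations rest on 12 libraries that share cell type and treatment, so they are descriptions of a group pattern.

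Several genes for LIM-binding adaptors, and for the LIM-only proteins that compete for them, were lower in germ cells. Of 10 genes for LIM-binding adaptors (Ldb1, Ldb2), the single-stranded DNA binding proteins that stabilise them (Ssbp2, Ssbp3, Ssbp4), LIM-only proteins (Lmo1 to Lmo4) and the ubiquitin ligase Rlim, 8 were called between germ and somatic cells after saline, 7 lower and 1 higher in germ cells, with a median log2 difference of -2.54 against 0.00 over all genes. The share called, 8 of 10, was close to the 86.1% of all genes (42.9% lower in germ cells). Rlim, at means of 199 and 184 CPM in saline germ and somatic cells, and Ssbp2, at 77.2 and 74.6 CPM, were not called. Ldb2 was furthest apart (log2 -6.49, edgeR adjusted p = 2.39e-14), with saline means of 1.29 CPM in germ and 116 CPM in somatic cells. Ldb1 was lower by less (log2 -1.75, edgeR adjusted p = 4.33e-12), at 74.9 and 254 CPM. Lmo2 (log2 -4.22, edgeR adjusted p = 4.85e-09), Ssbp4 (log2 -3.72, edgeR adjusted p = 4.98e-13) and Lmo3 (log2 -3.55, edgeR adjusted p = 8.37e-07) were lower in germ cells as well. Lmo1 was the gene higher in germ cells (log2 0.82, edgeR adjusted p = 0.0156), a call lost without replicate 3 of the saline germ cells or without replicate 1 or 2 of the saline somatic cells (adjusted p up to 0.0896).

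Between dex and saline somatic cells 4 of these 10 genes were called, 3 lower and 1 higher after dex, with a median log2 fold change of -0.08, against 8.18% of all genes called (3.36% lower and 4.81% higher). Lmo2, a LIM-only gene of blood and endothelial cells, fell from 8.24, 10.7 and 11.7 CPM to 5.74, 6.36 and 5.11 CPM (log2 -0.83 ± 0.19, edgeR adjusted p = 0.0137). Lmo4 rose from 72.4, 77.3 and 69.3 CPM to 106, 93.7 and 81.4 CPM (log2 0.36 ± 0.09, edgeR adjusted p = 0.0243). Ldb2 (log2 -0.28 ± 0.08, edgeR adjusted p = 0.0381) and Ssbp3 (log2 -0.23 ± 0.06, edgeR adjusted p = 0.0292) fell by less. For each of the 4 genes the dex libraries did not overlap with the saline libraries, as for the 25.4% of all genes given before. Leaving out 1 library raised the adjusted p above the threshold for each, up to 0.0854 for Lmo2, 0.124 for Lmo4, 0.173 for Ldb2 and 0.0926 for Ssbp3 over the alternatives tried. The libraries concerned were saline replicates 2 and 3 for Lmo2, saline replicates 1 and 3 with dex replicates 1 and 2 for Lmo4, saline replicates 1 and 3 with dex replicates 2 and 3 for Ldb2, and each somatic library but dex replicate 3 for Ssbp3. Without dex replicate 3, 2 were called lower (Ssbp3 and Lmo2) and 2 higher (Ssbp2 and Lmo4). Of 5 endothelial markers set beside Lmo2, 3 were called between dex and saline somatic cells. Tie1 (log2 -0.65, edgeR adjusted p = 0.0148) and Cdh5 (log2 -0.50, edgeR adjusted p = 0.00862) were lower and Emcn (log2 0.43, edgeR adjusted p = 0.0496) higher after dex. Kdr (log2 -0.04, edgeR adjusted p = 0.786) and Pecam1 (log2 -0.27, edgeR adjusted p = 0.19) were not called. Each of these 3 calls was lost with 1 somatic library left out (Tie1 without saline replicate 2 or 3, Cdh5 without saline replicate 3, Emcn without replicate 1 or 2 of either group), with adjusted p up to 0.0837, 0.0597 and 0.203. The 5 endothelial markers summed to 294 to 340 CPM after saline and 269 to 297 after dex, and the part of endothelial or macrophage content was not tested.

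In germ cells 8 of the 10 genes were tested and edgeR called none, with 2 at an unadjusted p under 0.05, 0 called by DESeq2 and log2 fold changes from -0.24 to 0.53. In the test of the difference between cell types edgeR called 0 of the 10, with 4 at an unadjusted p under 0.05 and 1 (Ssbp4) called by DESeq2.

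**Figure D5:**
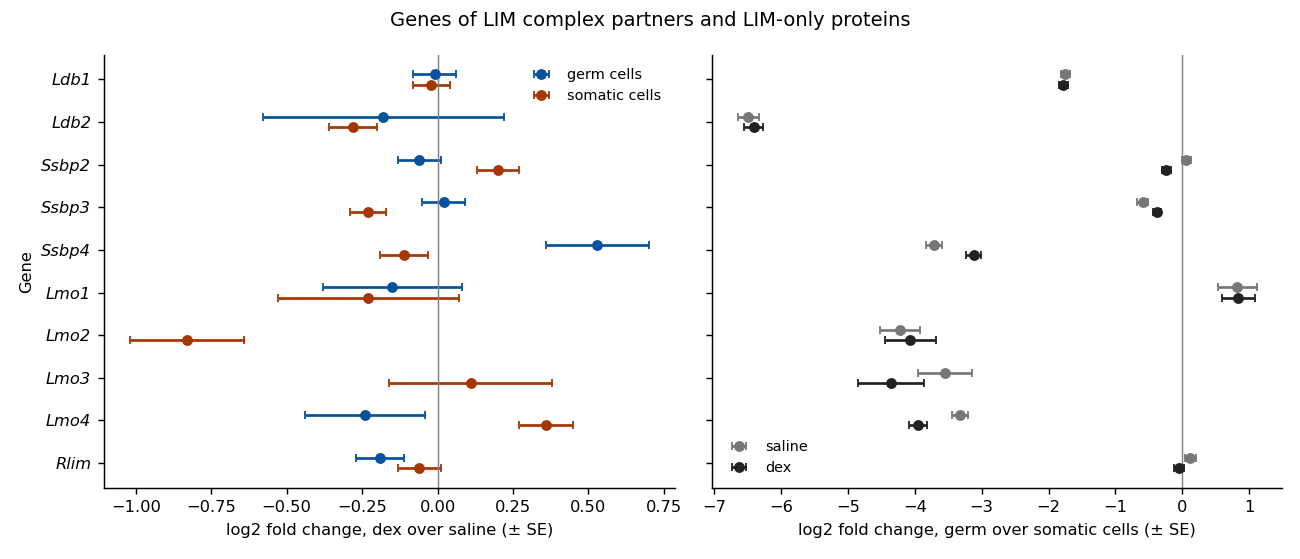
Log2 fold changes with SE (x axes) of 10 genes for LIM-binding adaptors, proteins that stabilise them, LIM-only proteins and Rlim (y axis). The left panel gives dex over saline in each cell fraction, and the right panel gives germ over somatic cells after saline and after dex. Lmo2 lies lowest on the left at -0.83, and Ldb2 lowest on the right at -6.49 after saline.

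Lhx8 was set beside 12 other oocyte genes. After saline 8 were tested and 7 were called, each higher in germ cells, with a median log2 difference of 6.04 over the 8, also with Nobox at its lower bound. Over all genes 86.1% were called and 43.1% were higher in germ cells. Sohlh2, a basic helix-loop-helix factor of early oocytes, had saline means of 121 CPM in germ and 0.0842 CPM in somatic cells (log2 10.39, edgeR adjusted p = 1.31e-15). Figla, a regulator of zona pellucida genes, had means of 48 and 0.107 CPM (log2 8.75, edgeR adjusted p = 5.25e-13). Taf4b, a subunit of the general transcription factor TFIID, had means of 485 and 4.71 CPM (log2 6.70, edgeR adjusted p = 9.87e-16). Nobox, a homeobox factor of oocytes, had 1055 counts over the saline germ cell libraries and none in somatic cells, at least 112-fold. The zona pellucida genes Zp1, Zp2 and Zp3 were each below 1 CPM on average in both fractions.

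Between dex and saline germ cells 9 of the 12 oocyte genes were tested and Kit, which encodes the receptor of KIT ligand, was the gene called. It fell from 184, 183 and 158 CPM to 106, 123 and 119 CPM (log2 -0.58 ± 0.08, edgeR adjusted p = 0.00959), and the groups did not overlap. In somatic cells Kit measured 33.6, 33.3 and 27.1 CPM after saline and 41.4, 38.1 and 40 CPM after dex (log2 0.34 ± 0.10, edgeR adjusted p = 0.0511, and 0.0481 with DESeq2). The difference between the responses was called (log2 -0.94 ± 0.13, edgeR adjusted p = 0.000955). The adjusted p of the Kit change in germ cells stayed under the threshold in each alternative, the highest being 0.044.

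Lhx9 was set beside 12 factors of the gonadal ridge. After saline 12 of 12 were called, 11 lower and 1 higher in germ cells, with a median log2 difference of -4.49, beside 86.1% of all genes called and 42.9% lower. Tcf21, a mesenchymal factor, was furthest apart at a mean of 99.7 CPM in somatic cells and 0.578 CPM in germ cells (log2 -7.40, edgeR adjusted p = 4.46e-15). Osr1 (log2 -7.28, edgeR adjusted p = 3.16e-14), Wt1 (log2 -5.80, edgeR adjusted p = 4.56e-14) and Zfpm2, a cofactor of GATA proteins (log2 -5.74, edgeR adjusted p = 5.09e-15), followed. Between dex and saline edgeR called 0 of 12 in somatic cells, with log2 fold changes from -0.23 to 0.41, and 0 of 11 tested in germ cells, where values ran from -1.56 (Nr0b1) to 0.88 (Gata4). At an unadjusted p under 0.05 there were 4 in somatic and 1 in germ cells, and DESeq2 called 1 (Wt1) and 0. Gata4 in germ cells was called where the low-count filter was left out (edgeR adjusted p = 0.000794). It measured 4.69, 20.6 and 14.6 CPM in the dex germ cell libraries, where the pregranulosa marker Foxl2 measured 2.54, 20 and 14.3 CPM, and the part of somatic RNA in it was not tested.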

How the data were processed

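The authors deposited raw counts per gene from poly-A RNA sequenced as read pairs, aligned to mm10 with HISAT2 2.0.5 and counted with featureCounts 1.5.0-p3. The FPKM values that the authors deposited scale the same counts by gene length and depth. Tables of the authors' DESeq2 1.20.0 fold changes and p-values were not used. The treatment of reads with several positions and the annotation release were not given in the sources used here.

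Groups came from the sample labels. The main test was edgeR 4.0.16 (R 4.3.3) with the quasi-likelihood fit, TMM scaling, filterByExpr, no covariate and Benjamini-Hochberg adjustment over all genes, called at 0.05. Contrasts within a fraction or a treatment used the 6 libraries concerned, and the difference used 12. DESeq2 1.42.0, RLE size factors, no low-count filter, a replicate block and leaving out each library were alternatives. Standard errors follow from the F statistic. The fits were tested on simulated data. Replicates differed beyond sampling noise (chi-square per degree of freedom 5.29 to 21.1).

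The members and lists were chosen with earlier results of these data known. Named were the members, Isl2 and Lmx1a, and from each longer list at most 4 called genes with the largest change per comparison, plus genes at 0. Likeness was Pearson's r of log2(CPM + 0.5) among genes that averaged 1 CPM or more in a group. Other genes named beside them, including Ldb1, Lmo1, Acbd6, Qsox1 and the marker genes, were chosen after their values were seen. Promoters are from RefSeq and transcripts from GENCODE, both on GRCm38. Results for some genes of the lists are not reported here.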

Additional observations from a re-analysis of the deposited data

Results flagged for a closer look

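The dex response differed between germ and somatic cells for Lhx4 and for Kit, by the test of the difference over 12 libraries. For Lhx4 the response in germ cells minus that in somatic cells was -4.37 on the log2 scale, and since this contrast was known when the gene was selected the value is a description. For Kit it was -0.94, with a fall in germ cells and higher values in the 3 dex somatic libraries, the latter not past the threshold. Of the 10 germ cell markers 2 were also called in that test, against 1.62% of all genes. They were Dazl (log2 -3.56, edgeR adjusted p = 1.91e-10) and Hormad1 (log2 -1.66, edgeR adjusted p = 0.028). The Hormad1 call was lost with any of 7 single libraries left out, with adjusted p up to 0.0949 over the alternatives.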

How the results depend on the processing

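The number of genes called between dex and saline germ cells was 35, and it became 158 with DESeq2 and 420 without the low-count filter. The number for the difference between cell types was 314, and it became 620 and 727. With 1 library left out, the counts ran from 754 to 1881 for somatic cells (1354 with all libraries), from 17 to 81 for germ cells and from 143 to 384 for the difference, and from 15530 to 15730 and 15322 to 15535 for germ against somatic cells after saline and dex. The cause of these changes was not tested, except that fewer libraries enter each such fit. The labels do not say whether germ and somatic libraries of the same replicate number came from the same pooled ovaries. Deviations from the group means correlated at -0.00972 to 0.132 between libraries of the same number, and at 0.0541 to 0.101 between germ and somatic cells. Such values cannot show that pairing was absent. A replicate block gave 1520 calls in somatic cells, 49 in germ cells, 313 for the difference, and 15283 and 15044 between cell types. Under the block Ssbp3 in somatic cells was no longer called (adjusted p = 0.0521). Genes not called but called under DESeq2, no filter or the block were Kit, Wt1 and Zfpm2 in somatic cells, Gata4 in germ cells, and Ssbp4, Lmo4, Gata4 and Emx2 for the difference. Leaving out dex replicate 3 of the somatic cells gave the 1881 calls. There Ssbp2, Tcf21 and the erythroid marker Hbb-y were also called higher. Nr5a1 and the germ cell marker Rec8 were called lower, beside the markers named in the text. No member changed sign where it had been called. The somatic log2 fold change of Lhx4 was between 4.17 and 4.20 over DESeq2, RLE size factors, no filter and the block. DESeq2 moved the median over all genes between germ and somatic cells to 0.21 after saline and 0.32 after dex, and leaving out the filter moved it to 0.14 and 0.27, in each case with more genes tested. Members at or under 3 counts in every library of a group are limited by depth, which covers Lhx5, the somatic values of Lhx3 and Lhx8, and Lmx1b in saline somatic cells.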
